A study of Arabidopsis thaliana with 9 samples.

Results

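Seedlings of the flavin mutant melinoe were compared with wild-type Col-0 seedlings that had been given riboflavin, using 6 of the 9 RNA libraries of the study. The RNA was polyadenylated RNA of 6-day-old Arabidopsis thaliana, read on a DNBSEQ instrument from libraries that keep the strand, and each group has 3 libraries. The mutant group is an EMS-mutagenised line in which FMN/FHY is altered, and its labels name no riboflavin treatment. The riboflavin group is Col-0 exposed to riboflavin for 8 hours of the dark period, at 0.6 mM according to the sample labels and 0.2 mM according to the design text. All seedlings were grown at 22 °C in long days, with 8 hours of dark after 16 hours of light, on medium with 1% sucrose. The members were chosen by label alone: the mutant columns of the deposited mutant table and the riboflavin columns of the deposited riboflavin table, joined by gene. Untreated Col-0 entered no test, and its levels are given beside the others as a description.

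The groups differ in genotype and in treatment at once. The hour at which mutant seedlings were collected is not given, nor whether they had a mock treatment, so genotype, riboflavin, hour of collection and hours of dark cannot be told apart. The mutant is 1 line from chemical mutagenesis, which can carry other mutations, and whole seedlings were used, in which fewer cells of a type and less RNA per cell cannot be told apart.

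Riboflavin is built in the plastid from GTP and ribulose 5-phosphate, and it is phosphorylated to FMN and then adenylated to FAD. These cofactors carry electrons in respiratory, photosynthetic and peroxisomal enzymes and absorb blue light in phototropins, cryptochromes and the ZTL family. FMN/FHY is a bifunctional enzyme whose kinase part makes FMN from riboflavin and whose phosphatase part removes the phosphate from FMN. Free riboflavin is also a photosensitiser, and in plants it has been used as an elicitor of defence.

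Most of the transcriptome differed between the groups. Of 20344 genes tested, 15083 were called at an adjusted p under 0.05 (edgeR quasi-likelihood, Benjamini-Hochberg), which is 74.1% of them, and 75.6% were under 0.05 before adjustment. The calls were nearly even in direction, with 7556 genes higher in the mutant (37.1%) and 7527 lower (37.0%). Many differences were small, and 6776 of the called genes had a log2 difference under 0.5 in size. At least a 2-fold difference was reached by 1955 genes higher in the mutant (9.61%) and 1512 lower (7.43%). The median of log2 (mutant over riboflavin) over all genes tested was 0.002, and the median size was 0.404. The levels of the groups did not overlap for 15296 genes, or 75.2%. Every count below is to be read against these shares.

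The libraries were alike in depth, with a total count of 19964397 to 20818004 per mutant library, 20677747 to 21103216 per riboflavin library and 20972510 to 21421418 per Col-0 library. The correlation of log2 levels across genes was at least 0.997 within a group and at most 0.935 between groups. Levels are CPM, counts scaled to the size of the library with TMM factors, and a log2 difference is that of the mutant over the riboflavin group, so a negative value means a lower level in the mutant.

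**Figure D1:**
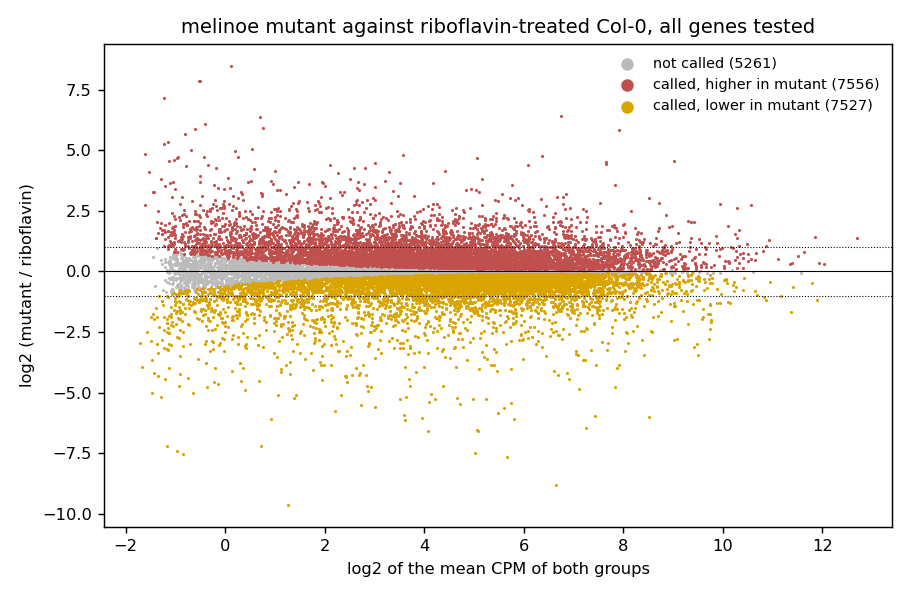
Each point is 1 of 20344 genes tested, with the log2 of its mean CPM over both groups on the horizontal axis and log2 (mutant over riboflavin) on the vertical axis. Red points are the 7556 genes called higher in the mutant, yellow points the 7527 called lower, and grey points the genes not called; dotted lines mark a 2-fold difference.

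FMN/FHY itself was lower in the mutant than in riboflavin-treated seedlings. FMN/FHY (AT4G21470; chromosome 4, 11431104 to 11433322 on TAIR10.1) had 720, 802 and 782 counts in the mutant libraries and 2284, 2332 and 2330 in the riboflavin libraries. Its level was 37.9 ± 1.26 CPM in the mutant and 112 ± 1.54 CPM in the riboflavin group (SD, n = 3 each), a log2 difference of -1.57 (standard error 0.043, adjusted p = 7.96e-24). Untreated Col-0 had 42.0 ± 2.27 CPM, so the mutant lay near Col-0 and the riboflavin group stood apart from both. A change of base in the gene need not change its transcript level, so this value does not check the genotype of the mutant libraries.

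Within the riboflavin pathway, FMN/FHY, a phosphatase and RIBA2 were lower in the mutant. RIBA3, the deaminase, the reductase, the lumazine synthase and the riboflavin synthase were higher. Of the 13 genes of flavin metabolism, 5 were higher, 5 lower and 3 not called, a share of calls close to that of all genes, with a median log2 of -0.05. AT4G11570, a hydrolase of the haloacid dehalogenase superfamily reported to act as the phosphatase of the pathway, had 71.7, 64.4 and 68.9 CPM in the mutant libraries and 142, 146 and 144 CPM in the riboflavin libraries. Its log2 difference was -1.09 (adjusted p = 2.25e-20, edgeR), and Col-0 had a mean of 69.9 CPM.

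The RIBA genes, whose enzymes open the pathway, went different ways. RIBA2 had 22.8, 21.5 and 21.9 CPM in the mutant and 28.4, 33.5 and 33.8 CPM in the riboflavin libraries, a log2 difference of -0.55. RIBA3 had 24.7, 26.3 and 24.3 CPM in the mutant and 16.6, 17.56 and 16.8 CPM in the riboflavin libraries, a log2 difference of 0.55. The groups did not overlap for either gene. RIBA1 differed little, with a log2 of -0.11 (edgeR, adjusted p = 0.0226), and it was not called by DESeq2 (adjusted p = 0.054).

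Apart from the phosphatase, the later enzymes of riboflavin synthesis were higher in the mutant. The lumazine-binding family protein AT2G20690, which is the riboflavin synthase, had 41.4, 41.4 and 39.5 CPM in the mutant libraries and 23.1, 23.2 and 25.4 CPM in the riboflavin libraries (log2 0.75, adjusted p = 2.88e-13, edgeR). COS1, the lumazine synthase that supplies it, had 52.8, 57.3 and 54.7 CPM in the mutant and 38.1, 42.1 and 39.4 CPM in the riboflavin libraries (log2 0.45). The deaminase AT4G20960 had a log2 of 0.68 and AT3G47390, which carries the reductase domain, 0.37. For all 4 of these genes the mean in Col-0, from 21.5 CPM for AT3G47390 to 58.4 CPM for COS1, lay nearer to the mutant than to the riboflavin group.

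On the side of FAD, NUDX23, a Nudix hydrolase that splits FAD in the plastid, was lower in the mutant at 30.0 CPM in the mutant and 38.4 CPM in the riboflavin group (log2 -0.37, adjusted p = 2.87e-07, edgeR). The nucleotidylyl transferase family members AT5G23330 and AT5G08340 were not called, with log2 values of 0.02 and -0.05. AT1G79790 (FHY1), an FMN hydrolase, was also not called (log2 -0.13, adjusted p = 0.073, edgeR).

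**Figure D2:**
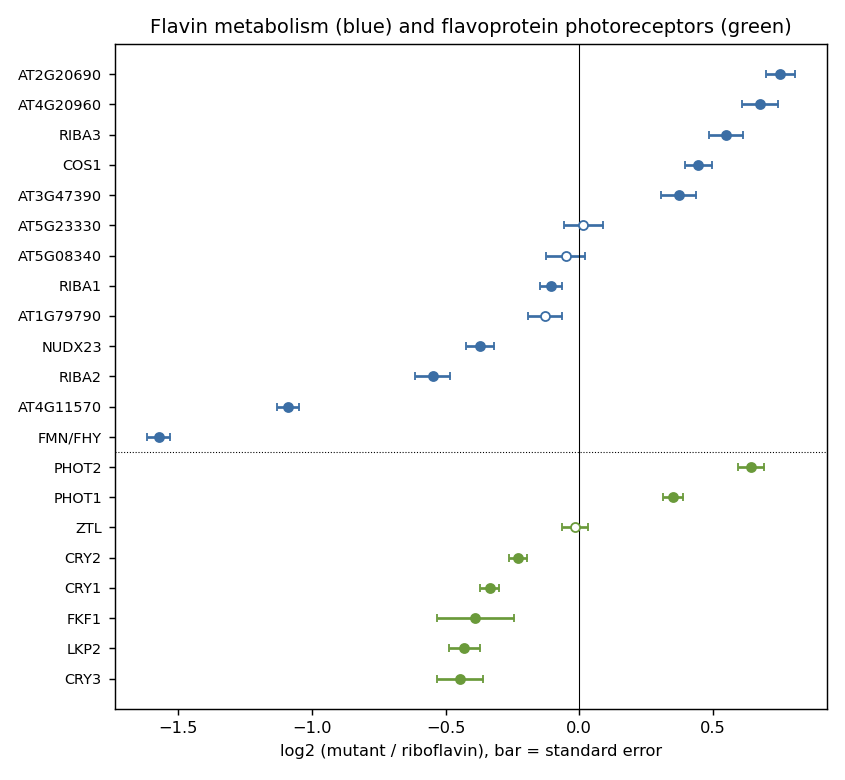
Log2 (mutant over riboflavin) with its standard error for the 13 genes of flavin metabolism (blue) and the 8 flavoprotein photoreceptors (green), with open symbols for genes not called. FMN/FHY lies lowest at -1.57 and AT2G20690 highest at 0.75.

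Phototropin genes were higher in the mutant and cryptochrome genes lower. Of the 8 flavoprotein photoreceptors, 2 were higher, 5 lower and 1 not called, with a median log2 of -0.28. PHOT1, a blue-light receptor kinase of phototropism, had 188, 188 and 184 CPM in the mutant, 141, 151 and 142 CPM in the riboflavin group and 381, 381 and 385 CPM in Col-0. Both groups therefore lay far below Col-0 for PHOT1, and the difference between them was small beside that, at a log2 of 0.35 (edgeR, adjusted p = 6.02e-10). PHOT2 had 48.9, 47.9 and 49.9 CPM in the mutant and 31.4, 31.1 and 30.4 CPM in the riboflavin libraries (log2 0.64), and its mean in Col-0 was 48.4 CPM.

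CRY1 and CRY2, the cryptochromes of seedling light growth and flowering, had log2 values of -0.34 and -0.23, and the organelle cryptochrome CRY3 had -0.45. Among the F-box photoreceptors of the clock, LKP2 was lower in the mutant (log2 -0.43). FKF1 was low in every library, with means of 2.93 CPM in the mutant and 3.79 CPM in the riboflavin group, and its call (log2 -0.39) was lost with DESeq2 (adjusted p = 0.0794). ZTL was level, with means of 42.1 and 42.1 CPM.

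Enzymes that carry flavin were counted by compartment, and the counts were not tested against each other. Of the 21 mitochondrial flavoenzymes tested, 17 were lower in the mutant, 2 higher and 2 not called, with a median log2 of -0.73. IVD, ETFQO and D2HGDH of this list also stand in the dark and carbon starvation list, and NDB2 in the mitochondrial stress list. Of the 16 in the plastid, 6 were higher, 7 lower and 3 not called, with a median of -0.05. Of the 31 in peroxisomes, cytosol and other membranes, 19 were lower, 6 higher and 6 not called, with a median of -0.28. Over all genes, 37.0% were called lower and 37.1% higher.

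The alternative NAD(P)H dehydrogenases, FAD enzymes that feed electrons to ubiquinone past complex I, were the mitochondrial members farthest apart. NDB4 had 0.558, 0.632 and 1.02 CPM in the mutant and 10.7, 11.8 and 12.6 CPM in the riboflavin libraries (log2 -3.99, adjusted p = 1.17e-19, edgeR). NDB3, which lies close to FMN/FHY on chromosome 4, had 0.558, 0.486 and 0.487 CPM in the mutant and 7.19, 8.16 and 6.91 CPM in the riboflavin libraries (log2 -3.86). NDA1 had a log2 of -2.47, whereas NDB1 was higher in the mutant (0.31). The mutant and Col-0 had nearly the same low levels of NDB4 and NDB3, at 0.713 and 0.526 CPM in Col-0.

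Mitochondrial enzymes of amino acid breakdown were also lower in the mutant. ERD5, a proline dehydrogenase, had 89.8, 89.5 and 91.3 CPM in the mutant libraries and 232, 243 and 245 CPM in the riboflavin libraries (log2 -1.43, adjusted p = 1.83e-24, edgeR). IVD, the isovaleryl-CoA dehydrogenase of leucine breakdown, was at 160.4 CPM in the mutant and 354 CPM in the riboflavin group, and ETFQO, which passes its electrons to ubiquinone, at 49.1 CPM in the mutant and 116 CPM in the riboflavin group. GLDH, which makes the last step of ascorbate, was higher in the mutant with a log2 of 0.29. The flavoprotein subunit of succinate dehydrogenase, SDH1-1, had a log2 of -0.36.

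In the plastid, the leaf and root forms of ferredoxin-NADP reductase went opposite ways. These FAD enzymes join ferredoxin to NADP, the leaf forms in photosynthesis and the root forms in reverse, to supply nitrite assimilation in tissue without photosynthesis. Leaf FNR1 had 252, 215 and 247 CPM in the mutant, 87.8, 91.6 and 91.3 CPM in the riboflavin group and 256, 253 and 261 CPM in Col-0 (log2 1.38, adjusted p = 1.11e-21, edgeR). Leaf FNR2 had a log2 of 1.34. Root-type RFNR2 had 68.2, 58.9 and 63.7 CPM in the mutant, 267, 284 and 275 CPM in the riboflavin group and 56.0, 53.1 and 53.0 CPM in Col-0 (log2 -2.13), and RFNR1 had -1.79. PPOX, which oxidises protoporphyrinogen for chlorophyll and heme, was higher in the mutant (0.83), and GLU1, a ferredoxin-dependent glutamate synthase, was lower (-0.93).

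Among the other flavoenzymes, the oxophytodienoate reductases OPR2 and OPR1 were farthest apart. OPR2 had 22.8, 26.7 and 25.0 CPM in the mutant and 146, 141 and 137 CPM in the riboflavin libraries (log2 -2.52), and OPR1 had -2.23. GOX3, a glycolate oxidase family member, had -1.31, while GOX2 of photorespiration was higher in the mutant at 0.61. Acyl-CoA oxidases of peroxisomal fatty acid breakdown were lower, with -1.26 for ACX2 and -1.19 for ACX4. At the upper end stood HAL3B, a phosphopantothenoylcysteine decarboxylase (1.15), and MTHFR1, a methylenetetrahydrofolate reductase (0.88).

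**Figure D3:**
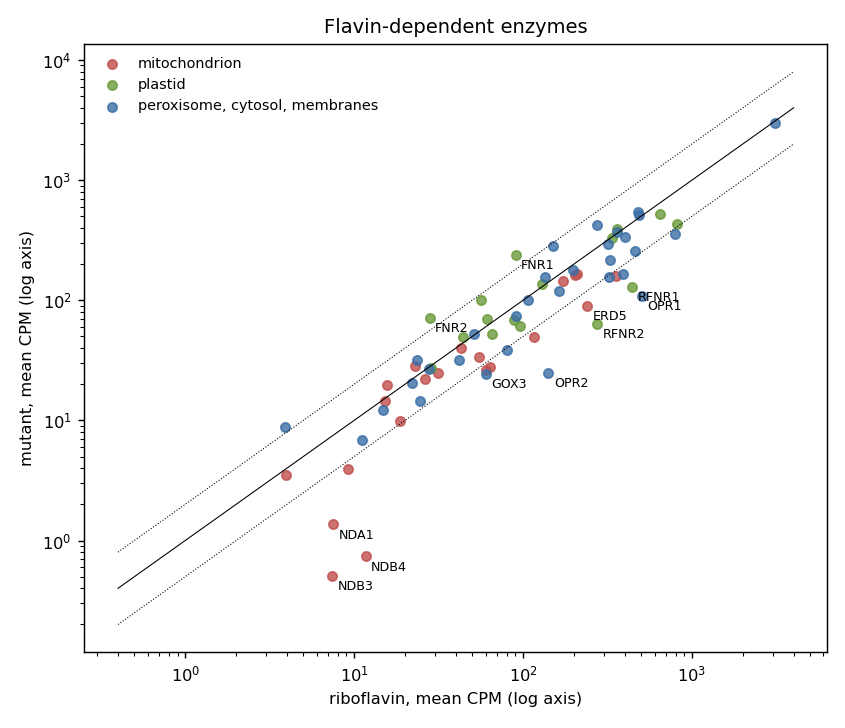
Mean CPM of flavin-dependent enzymes in the riboflavin group (horizontal, log axis) and in the mutant (vertical, log axis), with mitochondrial members in red, plastid members in green and the others in blue. The solid line marks equal levels and the dotted lines a 2-fold difference. Members past about 2.5-fold are named, and NDB4, NDB3 and OPR2 lie farthest below the line.

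The genes with the lowest log2 difference, among called genes with at least 100 counts on average in the higher group, were low in the mutant and in Col-0. BGLU28, a beta-glucosidase of the sulfur deficiency response, had 0.507, 0.389 and 0.438 CPM in the mutant libraries and 198, 196 and 203 CPM in the riboflavin libraries. Its log2 difference was -8.80 (standard error 0.085, adjusted p = 7.77e-35, edgeR). AT1G09500, an NAD(P)-binding Rossmann-fold protein, had 0.304, 0.729 and 0.487 CPM in the mutant and 103, 102 and 99.9 CPM in the riboflavin libraries (log2 -7.64). AT2G38240, a 2-oxoglutarate-dependent oxygenase, had a log2 of -7.48.

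The other 7 of these 10 genes had log2 differences from -6.59 to -6.04. They were the sucrose transporter SUC7, the cinnamyl alcohol dehydrogenase family member ELI3-2, the glucosyltransferase UGT76E12, PYD4 of pyrimidine breakdown, the subtilase AT5G58840, ATSDI1 and the jasmonate-regulated JRG21. PYD4 was at 3.502 ± 0.241 CPM in the mutant and 301 ± 5.77 CPM in the riboflavin group. SUC7 has near-identical relatives, so its share of reads is uncertain.

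At the other end, the 10 genes with the highest log2 difference had levels in Col-0 that lay between the groups. AT4G12500, a lipid-transfer family protein, had 202, 219 and 216 CPM in the mutant, 2.27, 2.05 and 3.02 CPM in the riboflavin group and 6.88, 7.55 and 7.81 CPM in Col-0 (log2 6.42, adjusted p = 2.57e-33, edgeR). Its neighbour AT4G12490 had a log2 of 5.81. The transcription factor gene WRKY49 had 4.81, the oxygenase AT2G36690 4.76, the receptor kinase FRK1 4.67 and the chitinase family member AT2G43620 4.55. RBCS1B, a small subunit of RuBisCO, had 4.51, the fatty alcohol dehydrogenase family member AT4G19380 4.46, the cell wall enzyme XTH7 4.44 and the putative membrane lipoprotein AT4G29030 4.38. No gene reached 100 counts on average in either group while staying at 3 counts or fewer in every library of the other.

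By the difference of mean CPM, which is not scaled for transcript length, other genes stood first. The 5 largest differences toward the riboflavin group were in APX1, a cytosolic ascorbate peroxidase, NIT1, a nitrilase, the tetratricopeptide-like protein AT1G07590, the wall enzyme XTH24 and the ubiquitin gene UBQ3. AT1G07590 varied within the riboflavin group, with 60329, 36851 and 61885 counts. The 5 largest toward the mutant were in CAB1, RBCS1A, AT5G64120, AZI1 and HSC70-1. AT5G64120, a peroxidase, had 2615, 2494 and 2801 CPM in the mutant, 369, 410.5 and 385 CPM in the riboflavin group and 251, 285 and 250.0 CPM in Col-0, so the mutant stood apart from both others.

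**Figure D4:**
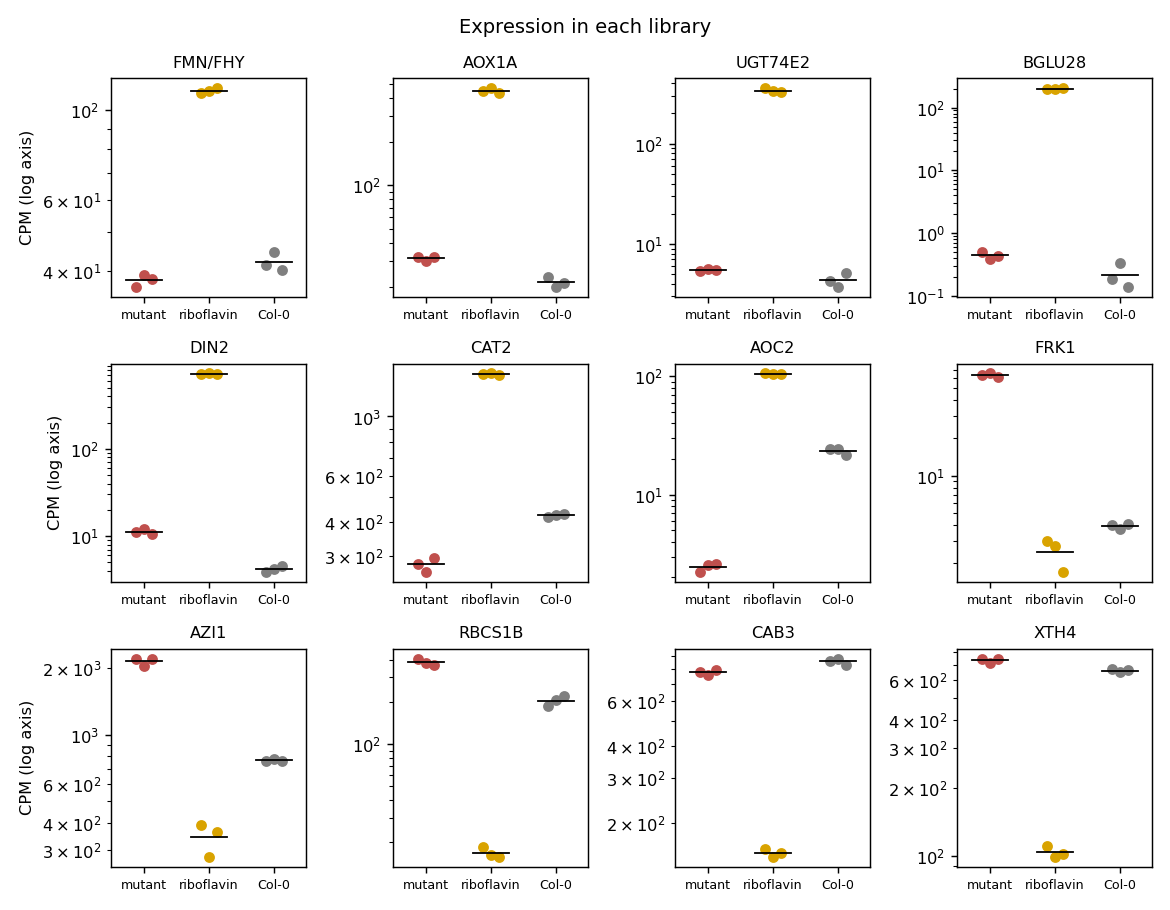
CPM of 12 genes in each library (points, log axis that differs between panels) with the group mean as a bar. For AOX1A, UGT74E2, BGLU28, DIN2 and CAT2 the riboflavin libraries stand above both other groups, for FRK1 and AZI1 the mutant libraries do, and for CAB3 and XTH4 the riboflavin libraries stand below both.

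Genes of the mitochondrial stress response, which nuclear transcription factors switch on when respiration is disturbed, were lower in the mutant almost without exception. Of 18 members tested, 17 were lower, none higher and 1, AOX1C, not called (edgeR), with a median log2 of -3.31. Their summed level was 406.6 to 415.1 CPM in the mutant libraries, 3540.0 to 3584.5 CPM in the riboflavin libraries and 374.3 to 386.3 CPM in Col-0. The mutant sum thus lay close to that of Col-0.

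AOX1A, the alternative oxidase that lets electrons bypass complexes III and IV, had 32.2, 29.9 and 31.9 CPM in the mutant libraries and 446, 465 and 432 CPM in the riboflavin libraries, a 14.4-fold difference (log2 -3.85, standard error 0.044, adjusted p = 2.57e-33, edgeR). AOX1D had 1.88, 1.75 and 0.974 CPM in the mutant and 89.8, 89.1 and 85.5 CPM in the riboflavin libraries (log2 -5.86). The groups were far apart for both. In CPM per kb of transcript, AOX1D made up 3.5% to 6.54% of the summed AOX1A to AOX1D level in the mutant libraries and 19.0% to 19.6% in the riboflavin libraries. AOX1B had only 2, 5 and 1 counts in the mutant and 72, 50 and 70 in the riboflavin libraries.

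UGT74E2, which glucosylates the auxin indole-3-butyric acid, had 5.32, 5.64 and 5.45 CPM in the mutant and 356, 334 and 326 CPM in the riboflavin libraries, a 62.5-fold difference (log2 -5.96). AT2G21640 (UPOX), annotated as a marker of oxidative stress, had 10.8, 10.6 and 9.74 CPM in the mutant and 208, 182 and 197 CPM in the riboflavin libraries (log2 -4.25). Of the transcription factors known to act on this response, NAC13 was lower in the mutant by a log2 of -2.63 and NAC017 by -0.20. OM66, an outer membrane ATPase, had -1.14, and TIM17-1, of the import machinery, -0.90.

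The mitochondrial dysfunction motif, the element that these NAC factors are known to bind, was searched in the 300 bases upstream of each gene start as CTTG, 5 bases of any kind and then CAAG or CACG, on both strands. It was present in 1.17% of 20211 windows, in 4.37% of the 1489 windows of genes called at least 2-fold lower in the mutant and in 9.47% of the 454 of genes called at least 4-fold lower. Among genes called at least 2-fold higher in the mutant it was in 0.463% of 1942 windows. Of the 18 mitochondrial stress members, 6 had it, and AOX1A did not have it in this window. The 6 sites are shown for the 5 bases between the searched letters, each read on the strand of the gene.
AOX1B: CGTGTGCTACAAG
AT2G21640: CTTGCTCTCCAAG
NDB2: CTTGGCCACCAAG
CYP81D8: CTTGAGGAACAAG
AT5G51440: CTTGGAGACCACG
NAC017: CGTGTCAGACAAG
The sites began between 140 bases (CYP81D8) and 51 bases (AT2G21640) before the gene start. A match of letters is a description and does not show binding.

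Windows of 2 members with large differences are printed whole from the TAIR10.1 genome of RefSeq, on the strand of the gene, with the motif in capitals.
AT2G21640, chr2:9254078-9254377, plus strand: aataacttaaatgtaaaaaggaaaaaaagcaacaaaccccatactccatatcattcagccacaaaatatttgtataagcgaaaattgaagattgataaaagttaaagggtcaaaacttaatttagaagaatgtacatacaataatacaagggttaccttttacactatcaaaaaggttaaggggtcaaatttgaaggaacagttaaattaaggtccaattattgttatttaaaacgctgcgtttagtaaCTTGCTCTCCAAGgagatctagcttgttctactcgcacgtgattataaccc
CYP81D8, chr4:17571744-17572043, minus strand: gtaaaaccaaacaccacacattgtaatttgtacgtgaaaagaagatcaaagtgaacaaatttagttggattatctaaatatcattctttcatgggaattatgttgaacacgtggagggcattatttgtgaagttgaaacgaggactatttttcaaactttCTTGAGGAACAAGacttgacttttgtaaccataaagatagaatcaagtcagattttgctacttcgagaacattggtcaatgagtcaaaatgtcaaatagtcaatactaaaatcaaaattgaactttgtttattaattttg
CYP81D8, a cytochrome P450, had 16.8, 16.3 and 15.8 CPM in the mutant and 436, 438 and 436 CPM in the riboflavin libraries (log2 -4.76). The small heat shock protein AT5G51440 had a log2 of -2.36 and NDB2 -1.22.

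Detoxification genes, which encode enzymes that attach glutathione or sugar to foreign and reactive compounds, were mostly lower in the mutant. Of 30 members, 24 were lower and 6 higher, with a median log2 of -1.99, and 4 of them also stand in the mitochondrial stress list. GSTU25, a tau-class glutathione transferase, had 9.13, 9.82 and 9.20 CPM in the mutant and 264, 274 and 262 CPM in the riboflavin libraries (log2 -4.84, adjusted p = 5.8e-34, edgeR). The efflux carrier AT2G04050 had -4.20, CYP81D11 -4.12 and UGT75B1 -3.85.

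The 6 members that were higher in the mutant were GSTU20, GSTU10 and 4 phi-class transferases. GSTU20, reported to act in glucosinolate synthesis, had 94.0, 91.4 and 91.8 CPM in the mutant, 32.3, 30.0 and 31.1 CPM in the riboflavin group and 319, 344 and 310.1 CPM in Col-0, so both groups lay below Col-0 (log2 1.55). GSTF6 had 876, 945 and 943 CPM in the mutant, 541, 575 and 548 CPM in the riboflavin group and 225, 222 and 226 CPM in Col-0, so both groups lay above Col-0 (log2 0.72). GSTF6 and GSTF7 are near-identical and the split of reads between them is uncertain. The W-box (TTGACC or TTGACT, either strand), bound by WRKY factors, was in the windows of 20 of the 30 members and in 32.5% of all windows.

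Sulfur deficiency genes had the second lowest list median. Of 14 members, 13 were lower in the mutant and 1 higher, with a median log2 of -2.79. Besides BGLU28, ATSDI1 had 1.42, 2.19 and 1.31 CPM in the mutant and 112, 109 and 108 CPM in the riboflavin libraries (log2 -6.07), and LSU1 had 2.03, 2.33 and 1.51 CPM in the mutant and 97.6, 88.0 and 102 CPM in the riboflavin libraries (log2 -5.62). Both genes are known to rise when sulfate is scarce. Of the enzymes of sulfate assimilation, APR3, an APS reductase, was at 81.9 CPM in the mutant and 578 CPM in the riboflavin group (log2 -2.83, adjusted p = 6.82e-32, edgeR). The vacuolar sulfate exporter SULTR4;2 had -2.74 and the root uptake carrier SULTR1;2 -0.31. The carrier SULTR2;1 was the only member higher in the mutant, with a log2 of 1.17.

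Transcripts known to rise in darkness or carbon starvation were lower in the mutant, in 20 of 21 members, with a median log2 of -1.13. The riboflavin seedlings were treated in the dark, and the light condition of the mutant seedlings at collection is not given. DIN2, a beta-glucosidase induced by darkness, had 11.1, 12.1 and 10.6 CPM in the mutant, 727, 730.3 and 717 CPM in the riboflavin group and 3.90, 4.17 and 4.54 CPM in Col-0 (log2 -6.02, adjusted p = 2.78e-36, edgeR). ASN1, an asparagine synthetase, had 137, 134 and 141 CPM in the mutant and 948, 940.4 and 938 CPM in the riboflavin libraries (log2 -2.79). DIN11 had -3.13, and MCCA, a biotin enzyme of leucine breakdown, -1.59. GDH1, a glutamate dehydrogenase, was the member higher in the mutant (0.41). DIN10 (-0.27) and the trehalose phosphate synthase family member TPS9 (-0.27) were at the upper end of those that were lower.

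Of 13 genes of chlorophyll breakdown and senescence, 9 were lower in the mutant, 2 higher and 2 not called, with a median log2 of -0.39. SAG13 had 3.35, 4.47 and 2.58 CPM in the mutant and 41.8, 36.8 and 39.8 CPM in the riboflavin libraries (log2 -3.52). NYE1, which starts chlorophyll breakdown, was at 25.7 CPM in the mutant and 84.5 CPM in the riboflavin group (log2 -1.73), and PPH, a pheophytinase, had -1.08. SWEET15 (1.72) and WRKY53 (0.25) were higher in the mutant. Starch breakdown genes were split, with 7 higher, 7 lower and 1 not called. BAM5 had 0.811, 0.875 and 1.07 CPM in the mutant, 3.67, 3.72 and 4.33 CPM in the riboflavin group and 18.17, 17.2 and 16.7 CPM in Col-0, the lowest log2 of the list at -2.09, and the maltose exporter MEX1 the highest at 0.73.

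The photosynthetic apparatus was higher in the mutant. Of 31 antenna and photosystem genes, 30 were higher, none lower and 1 not called (edgeR), with a median log2 of 0.91. Their summed level was 37976.7 to 39510.7 CPM in the mutant libraries, 19969.3 to 20141.1 CPM in the riboflavin libraries and 48434.5 to 50517.1 CPM in Col-0. The mutant thus lay between the riboflavin group and Col-0. CAB3, a chlorophyll a/b-binding protein, had 779, 756 and 794 CPM in the mutant and 159, 148 and 153 CPM in the riboflavin libraries (log2 2.33, adjusted p = 7.66e-30, edgeR). LHCB2.3 had 1.60, whereas LHCA2 (0.33), PETC (0.39) and LHCA3 (0.42) differed least among the called members. CAB1, CAB2 and CAB3 are near-identical, and reads may be split wrongly between them.

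All 13 genes of RuBisCO and the Calvin cycle were higher in the mutant, with a median log2 of 1.43. RBCS1B had 409, 383 and 368 CPM in the mutant, 18.5, 16.2 and 15.7 CPM in the riboflavin group and 186, 207 and 221 CPM in Col-0 (log2 4.51, adjusted p = 5.74e-33, edgeR). In CPM per kb of transcript it made up 3.53% to 3.69% of the 4 small-subunit genes in the mutant libraries, 0.422% to 0.486% in the riboflavin libraries and 1.51% to 1.74% in Col-0. These genes are near-identical, so their split is uncertain, and their summed level was 7604.7 to 8109.5 CPM per kb in the mutant, 2710.0 to 2784.4 in the riboflavin group and 9002.6 to 9246.3 in Col-0. FBA2, an aldolase, and GAPB, a glyceraldehyde-3-phosphate dehydrogenase, had log2 values of 1.78 and 1.78. GAPA differed least (0.40).

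Chlorophyll synthesis followed the same direction, with 22 of 23 genes higher in the mutant and 1, the regulator FLU, not called (median log2 of 1.07). PORC, a light-dependent protochlorophyllide reductase, had 24.8, 25.5 and 26.9 CPM in the mutant, 4.49, 5.06 and 4.13 CPM in the riboflavin group and 23.3, 22.7 and 21.1 CPM in Col-0 (log2 2.48, adjusted p = 1.76e-21, edgeR). PORA had 12.02, 12.1 and 13.4 CPM in the mutant, 3.77, 4.39 and 3.21 CPM in the riboflavin group and 37.3, 33.8 and 32.7 CPM in Col-0 (log2 1.71). PORB had 1.88 and PCB2, a divinyl reductase, 1.90. HEMA1, the glutamyl-tRNA reductase that opens the pathway, differed least among the called members (0.13). Of 9 plastid sigma factor and expression genes, 5 were higher, 3 lower and 1 not called, with PTAC12 at 1.44 and SIG5 at -0.33.

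Jasmonate genes were lower in the mutant in nearly every case. Of 12 genes of jasmonate synthesis, 10 were lower, none higher and 2 not called (edgeR; median log2 of -1.252), and all 23 of jasmonate signalling and output were lower (median -1.75). AOC2, an allene oxide cyclase, had 2.23, 2.53 and 2.58 CPM in the mutant, 106, 105 and 105 CPM in the riboflavin group and 24.2, 24.5 and 21.6 CPM in Col-0 (log2 -5.43, adjusted p = 5.32e-32, edgeR). AOC1, its near-identical neighbour, had a log2 of -2.48, and the split of reads between the pair is uncertain. AOS, an allene oxide synthase, had 61.3, 61.2 and 62.5 CPM in the mutant, 213, 209.9 and 211 CPM in the riboflavin group and 137, 150.5 and 142 CPM in Col-0 (log2 -1.79).

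Several jasmonate genes also had lower levels in the mutant than in Col-0. NATA1, an ornithine acetyltransferase induced by jasmonate, had 0.507, 0.827 and 0.682 CPM in the mutant, 23.61, 25.8 and 23.2 CPM in the riboflavin group and 7.85, 10.8 and 9.91 CPM in Col-0 (log2 -5.17). FAMT, a carboxyl methyltransferase, had 1.06, 0.875 and 1.56 CPM in the mutant, 26.5, 22.8 and 25.4 CPM in the riboflavin group and 13.1, 13.8 and 14.5 CPM in Col-0 (log2 -4.42). The defensin PDF1.2 had 0, 1 and 0 counts in the mutant libraries and 12, 18 and 14 in the riboflavin libraries. JAZ9, a repressor of the pathway, had -2.04. The receptor COI1 (-0.16) and the transcription factor MYC2 (-0.12) differed least, and MYC2 was not called with upper quartile scaling (adjusted p = 0.117). MYC2 had means of 107, 115 and 235 CPM in the mutant, the riboflavin group and Col-0, so both groups lay below Col-0. The signalling and output list summed to 1090.6 to 1103.1 CPM in the riboflavin libraries and 1246.4 to 1262.4 CPM in Col-0. For the synthesis list these sums were 1927.5 to 1987.7 CPM and 1159.2 to 1197.6 CPM.

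Salicylic acid and immunity genes went the other way. Of 23 members, 18 were higher in the mutant, 4 lower and 1 not called, with a median log2 of 1.06. FRK1, a receptor kinase induced by bacterial flagellin, had 64.1, 65.7 and 61.9 CPM in the mutant, 2.99, 2.72 and 1.70 CPM in the riboflavin group and 4.04, 3.75 and 4.07 CPM in Col-0 (log2 4.67, standard error 0.090, adjusted p = 9.12e-28, edgeR). The 3 mutant libraries stood far above the other 6. ICS1, the isochorismate synthase that opens salicylic acid synthesis, had 29.4, 30.8 and 27.5 CPM in the mutant, 10.14, 9.02 and 7.78 CPM in the riboflavin group and 8.31, 8.02 and 8.56 CPM in Col-0 (log2 1.68). PBS3, which acts after it, had 10.8, 11.04 and 11.3 CPM in the mutant and 1.40, 1.34 and 1.56 CPM in the riboflavin libraries (log2 2.93).

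PR1, a classic marker of salicylic acid, was almost unread, with 17, 10 and 22 counts in the mutant libraries and 0, 3 and 1 in the riboflavin libraries. CYP71A12, of camalexin and indole carbonyl nitrile synthesis, had 112, 114 and 111 CPM in the mutant, 26.8, 26.8 and 24.5 CPM in the riboflavin group and 7.11, 8.21 and 9.26 CPM in Col-0 (log2 2.09). PAD3, the last enzyme of camalexin synthesis, was lower in the mutant instead, with 7.86, 8.75 and 8.28 CPM against 53.8, 57.0 and 53.0 CPM in the riboflavin libraries (log2 -2.73). The glutaredoxin GRX480 (-0.92) and the salicylic acid receptors NPR1 (-0.35) and NPR3 (-0.14) were the other members lower in the mutant.

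A cluster of lipid-transfer family genes on chromosome 4 held several of the largest differences. AZI1 (chromosome 4, 7401087 to 7401951 on TAIR10.1), which is needed for the spread of immune priming, had 2196, 2042 and 2206 CPM in the mutant, 391, 279.6 and 363 CPM in the riboflavin group and 763, 773 and 762 CPM in Col-0 (log2 2.63). EARLI1 had 1766, 1719.6 and 1654 CPM in the mutant and 249, 222 and 273 CPM in the riboflavin libraries (log2 2.77). AT4G12490 and AT4G12500 follow on the same stretch, which ends at 7414955. All 4 were higher in the mutant than in either other group by their levels.

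The upstream window of FRK1 is printed because this promoter is widely used as a reporter of early immune signalling, with its W-boxes in capitals. It is from the TAIR10.1 genome of RefSeq, on the strand of the gene.
FRK1, chr2:8329945-8330244, minus strand: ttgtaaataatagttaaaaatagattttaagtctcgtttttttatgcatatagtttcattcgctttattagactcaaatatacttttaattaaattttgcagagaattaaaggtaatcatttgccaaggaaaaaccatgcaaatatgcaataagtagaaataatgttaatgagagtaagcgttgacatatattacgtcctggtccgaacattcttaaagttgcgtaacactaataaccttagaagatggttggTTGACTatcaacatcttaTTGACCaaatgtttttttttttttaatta
The W-boxes begin 47 and 29 bases before the gene start, and only matches as TTGACC or TTGACT on either strand were marked. Of the 23 immunity members, 7 had a W-box in this window, beside 32.5% of all windows.

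Markers of reactive oxygen and antioxidant enzymes did not move as a block. Of 12 reactive oxygen markers, 7 were lower in the mutant, 3 higher and 2 not called (median log2 of -0.50), and of 18 antioxidant enzymes, 10 were lower, 6 higher and 2 not called (median -0.14). FER1, an iron store in plastids that is induced by iron and hydrogen peroxide, had 331, 338 and 330.5 CPM in the mutant, 1218, 1252 and 1217 CPM in the riboflavin group and 306, 315 and 306 CPM in Col-0 (log2 -1.90). APX1 had 1283, 1234 and 1284 CPM in the mutant, 4008, 4027 and 4036 CPM in the riboflavin group and 757, 749 and 726 CPM in Col-0 (log2 -1.68, adjusted p = 1.52e-27, edgeR). The singlet oxygen responsive gene BAP1 was not called, at 29.8 and 29.3 CPM.

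The catalases were divided. CAT2 (AT4G35090), the catalase of photorespiration, had 279.8, 261 and 295 CPM in the mutant and 1440.5, 1450.1 and 1433 CPM in the riboflavin libraries (log2 -2.39), while CAT3 (AT1G20620) had 0.29. In CPM per kb of transcript, CAT2 made up 5.15% to 5.56% of the summed catalase level in the mutant libraries, 26.3% to 26.5% in the riboflavin libraries and 6.63% to 6.98% in Col-0. The sum itself was more even, with mutant libraries at 2119.5 to 2212.0 CPM per kb and riboflavin libraries at 2262.6 to 2302.1 CPM per kb. Superoxide dismutases of the plastid with iron were higher in the mutant, with 1.11 for FSD1 and 1.09 for FSD3, and the copper-zinc enzyme CSD1 was lower (-0.63).

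Glucosinolate genes were mostly higher in the mutant than in the riboflavin group. All 18 aliphatic genes were higher in the mutant than in the riboflavin group (median log2 of 0.86). CYP79F1, the first enzyme of the core pathway, had 12.8, 11.6 and 12.7 CPM in the mutant, 3.24, 4.68 and 4.62 CPM in the riboflavin group and 86.0, 88.5 and 88.8 CPM in Col-0 (log2 1.55, adjusted p = 1.37e-13, edgeR). MYB29, a transcription factor of this branch, had 1.12, 1.22 and 1.02 CPM in the mutant, 0.435, 0.430 and 0.292 CPM in the riboflavin group and 5.55, 6.85 and 5.61 CPM in Col-0 (log2 1.51). CYP83A1, the next P450 of the core pathway, had a log2 of 1.24, and SOT18, which adds the sulfate, had the smallest (0.43).

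Of 13 genes of indole glucosinolate synthesis, 10 were higher in the mutant, 1 lower and 2 not called (median log2 of 0.41). CYP83B1 had 725, 734 and 749.7 CPM in the mutant, 331, 331 and 314 CPM in the riboflavin group and 264, 284 and 266 CPM in Col-0, so here the mutant stood above both others (log2 1.16). CYP79B2 had 0.84 and GGP1, a gamma-glutamyl peptidase, was lower (-0.91). The 7 genes of tryptophan synthesis, which supplies this branch, differed little, with 2 higher, 2 lower and 3 not called, from -0.37 for TSB1 to 0.13 for AT5G17990. For TSB1 the means were 556 CPM in the mutant, 713 CPM in the riboflavin group and 308 CPM in Col-0. Of 12 flavonoid genes, 8 were higher, none lower and 4 not called (edgeR), with 4CL3 at 2.06, MYB111 at 1.74 and CHS, the chalcone synthase, at 1.05.

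Genes of growth were higher in the mutant. Of 21 cell cycle and replication genes, 20 were higher, none lower and 1 not called (edgeR; median log2 of 1.11). HINKEL and KNOLLE, which act when the new wall between daughter cells is formed, had log2 values of 1.67 and 1.64. KNOLLE had 23.3, 24.8 and 22.1 CPM in the mutant, 7.05, 6.92 and 8.27 CPM in the riboflavin group and 21.1, 19.8 and 23.9 CPM in Col-0, so the mutant was at the level of Col-0. The mitotic cyclin CYCB1;2 had 1.63, and the members of the replicative helicase lay between 0.60 for MCM5 and 1.49 for MCM7. Stomatal lineage genes, which mark young dividing epidermis, were higher in 5 of 6 members with 1 not called (median 1.05), and their part in the cell cycle result was not tested. Of 15 ribosome and nucleolus genes, 11 were higher, 1 lower and 3 not called, with smaller differences (median 0.20) from -0.20 for NUC1 to 0.83 for RPS5B.

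Of 8 genes of cell wall expansion, 6 were higher in the mutant, 1 lower and 1 not called, with a median log2 of 1.95, the highest of the 40 lists. XTH4, a wall-loosening xyloglucan endotransglucosylase, had 746, 712 and 742 CPM in the mutant, 111, 99.2 and 102 CPM in the riboflavin group and 668, 650.4 and 663 CPM in Col-0 (log2 2.80, adjusted p = 6.23e-31, edgeR). The expansin EXPA5 had 14.9, 13.9 and 14.4 CPM in the mutant and 1.88, 2.05 and 1.56 CPM in the riboflavin libraries (log2 2.95), and EXPA8 had 2.77. XTH22, known to respond to touch and to auxin and brassinosteroid, was lower in the mutant (-0.76). Of the wall enzymes named above but outside this list, XTH24 was lower in the mutant (-1.07) and XTH7 higher (4.44).

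Auxin genes were mixed. Of 20 members, 12 were higher in the mutant and 8 lower (median log2 of 0.33). Enzymes that join auxin to amino acids were lower, GH3.3 with 29.9, 28.4 and 28.6 CPM in the mutant, 179, 170.3 and 179 CPM in the riboflavin group and 66.4, 66.9 and 68.5 CPM in Col-0 (log2 -2.62) and GH3.5 with a log2 of -1.46. The transporters were higher, with PIN7 at 1.58, PIN4 at 1.099, PIN3 at 0.72 and AUX1 at 0.81. The early response gene IAA19 had 14.8, 15.3 and 13.2 CPM in the mutant, 4.39, 3.82 and 4.28 CPM in the riboflavin group and 30.0, 29.1 and 30.0 CPM in Col-0 (log2 1.78). IAA30, which was low in all libraries, had -1.05.

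Clock genes, whose transcripts follow the hour of day, differed in both directions. Of 11 morning genes, 4 were higher in the mutant, 6 lower and 1 not called (median log2 of -0.09), and of 10 evening genes, 2 were higher, 7 lower and 1 not called (median -0.38). CCA1, a central morning repressor, had 147, 143 and 147 CPM in the mutant, 155, 152 and 152 CPM in the riboflavin group and 113, 106 and 106 CPM in Col-0 (log2 -0.09, adjusted p = 0.0305, edgeR). Its partner LHY had 129, 128 and 129.7 CPM in the mutant and 98.4, 98.5 and 102 CPM in the riboflavin libraries (log2 0.36). The count of morning genes lower in the mutant went from 6 to 3 with DESeq2.

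PRR7, which represses CCA1 during the day, had 85.0, 89.1 and 78.0 CPM in the mutant, 177, 185 and 181 CPM in the riboflavin group and 131, 126 and 131 CPM in Col-0 (log2 -1.12). LNK2 had -0.79 and RVE2 1.255. Among the evening genes, PRR5 (-0.92) and the RNA-binding protein gene GRP7 (-0.89) were lower in the mutant than in the riboflavin group. PRR5 had means of 4.25, 7.93 and 1.05 CPM in the mutant, the riboflavin group and Col-0, so both groups lay above Col-0. For GRP7 these means were 243, 446 and 249 CPM, so the mutant lay near Col-0. TOC1 had a log2 of -0.48 and GI -0.35, and LUX was higher in the mutant (0.27). The evening element AAAATATCT was in the upstream windows of 7 of the 10 evening genes, beside 2.9% of all windows. Neither the part of collection hour in these values nor in those of other lists was tested.

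Of 18 genes of light signalling and shade, 12 were higher in the mutant, 5 lower and 1 not called (median log2 of 0.21). HY5, a transcription factor of seedling development in light, had 33.7, 36.4 and 33.2 CPM in the mutant, 16.4, 16.8 and 19.0 CPM in the riboflavin group and 13.5, 13.2 and 13.8 CPM in Col-0 (log2 0.97). PIF1, a repressor of greening in the dark, was also higher (1.03), and PIF5 (-0.40) and PIF4 (-0.26) were lower. The shade gene ATHB2 had 16.2, 16.6 and 16.4 CPM in the mutant, 30.9, 31.2 and 32.7 CPM in the riboflavin group and 69.2, 71.0 and 66.3 CPM in Col-0 (log2 -0.96). PIL1, another shade gene, had 3.20, 2.44 and 41.4 CPM on average in the mutant, the riboflavin group and Col-0, so both groups lay far below Col-0 (log2 0.38).

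Heat shock genes were lower in the mutant in 16 of 21 members, with 4 higher and 1 not called (median log2 of -0.68). HSP23.6-MITO, a small heat shock protein of mitochondria, had 3.19, 3.11 and 3.02 CPM in the mutant and 46.3, 47.0 and 47.3 CPM in the riboflavin libraries (log2 -3.93, adjusted p = 1.71e-27, edgeR). HSP17.6II had -2.02, and the chaperones of the endoplasmic reticulum were divided, with BIP3 at -1.97 and BIP2 at 0.82. Small heat shock genes resemble each other, and reads may be shared among them. For several cytosolic small members the mutant lay between Col-0 and the riboflavin group, as in HSP17.6A with means of 10.6, 41.0 and 2.51 CPM in the mutant, the riboflavin group and Col-0.

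Of 19 genes of abscisic acid and dehydration, 14 were lower in the mutant and 5 higher (median log2 of -1.16). RD20, a calcium-binding lipid droplet protein, had 4.97, 6.27 and 5.75 CPM in the mutant, 52.5, 48.7 and 47.1 CPM in the riboflavin group and 15.4, 14.4 and 14.8 CPM in Col-0 (log2 -3.14, adjusted p = 2.87e-25, edgeR). The phosphatase HAI1 had -2.52 and AT5G66400, a dehydrin, -2.56. Receptor genes were higher, with PYL6 at 0.94 and PYL4 at 0.70. RD22 had 302, 289.9 and 310.2 CPM in the mutant, 81.5, 83.1 and 82.0 CPM in the riboflavin group and 165, 159 and 163 CPM in Col-0 (log2 1.85), and so went against most of its list.

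Nutrient lists were mixed. Of 12 nitrate and ammonium genes, 7 were higher in the mutant, 4 lower and 1 not called (median log2 of 0.24). NRT1.1, a nitrate transporter and sensor, had 334, 335 and 335 CPM in the mutant and 122, 125 and 120.4 CPM in the riboflavin libraries (log2 1.44). NIR1, the nitrite reductase, had 374, 375 and 392 CPM in the mutant, 1304, 1278 and 1256 CPM in the riboflavin group and 429, 429 and 421 CPM in Col-0 (log2 -1.76), and UPM1, which makes the siroheme it carries, had -2.07. NIA2, the main nitrate reductase and a flavoprotein itself, was not called (-0.06).

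Of 15 phosphate starvation genes, 4 were higher, 9 lower and 2 not called (median -0.38), from -2.84 for the ribonuclease RNS1 to 1.86 for the phosphate transporter PHT1;4. Of 24 iron genes written down, 15 could be tested, with 6 higher, 8 lower and 1 not called, and the median of -0.19 turned to 0.19 with no filter on low counts, which tested more members. F6'H1, which makes the coumarin scopoletin secreted by roots, had 109.7, 111 and 108 CPM in the mutant, 40.3, 40.9 and 38.8 CPM in the riboflavin group and 35.4, 32.8 and 33.7 CPM in Col-0 (log2 1.44). Among transcripts of iron uptake and storage, NAS2 had -1.81 and FER4 0.86.

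Markers of single cell types and organs were compared to see whether tissue makeup might move with the groups. Of 6 root hair markers, 4 were lower in the mutant and 2 not called, with summed levels of 41.2 to 50.6 CPM in the mutant and 68.9 to 70.4 CPM in the riboflavin libraries. Of 6 root tip and endodermis markers, 2 were higher, 1 lower and 3 not called, with sums of 84.6 to 93.3 CPM in the mutant and 71.8 to 72.9 CPM in the riboflavin libraries. EXPA7, a root hair expansin, had 5.98, 6.08 and 5.40 CPM in the mutant and 14.4, 16.1 and 14.6 CPM in the riboflavin libraries (log2 -1.38). Stomatal lineage markers summed to 32.0 to 34.4 CPM in the mutant and 19.7 to 20.5 CPM in the riboflavin libraries, with BASL at 1.64 and SPCH at 1.45. Of 3 seed storage genes tested, 2 were higher in the mutant and 1 was not called (log2 -0.18). CRU3 had 1.18, and SESA1 had 12, 18 and 23 counts in the mutant and 3, 1 and 0 in the riboflavin libraries. The seed storage sums were small, at 11.3 to 11.9 CPM in the mutant, 8.1 to 9.5 CPM in the riboflavin group and 11.7 to 14.5 CPM in Col-0. The root hair sum was lower in the mutant, and the root tip and stomatal sums were higher. Within the root tip list SCR (0.37) and CASP1 (0.26) were higher, and WOX5, which had few counts, was lower (-0.72). Root markers thus had no common direction. The part of these sums in the other results was not tested.

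The calls were spread over the genome. The share of tested genes called ran from 73.7% on chromosome 2 to 75.1% on chromosome 4, and was 75.8% among the 384 tested genes within 1 Mb of FMN/FHY. A difference of at least 2-fold was reached by 16.0% to 17.7% of genes on the 5 chromosomes and by 20.6% of those within 1 Mb of FMN/FHY.

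**Figure D5:**
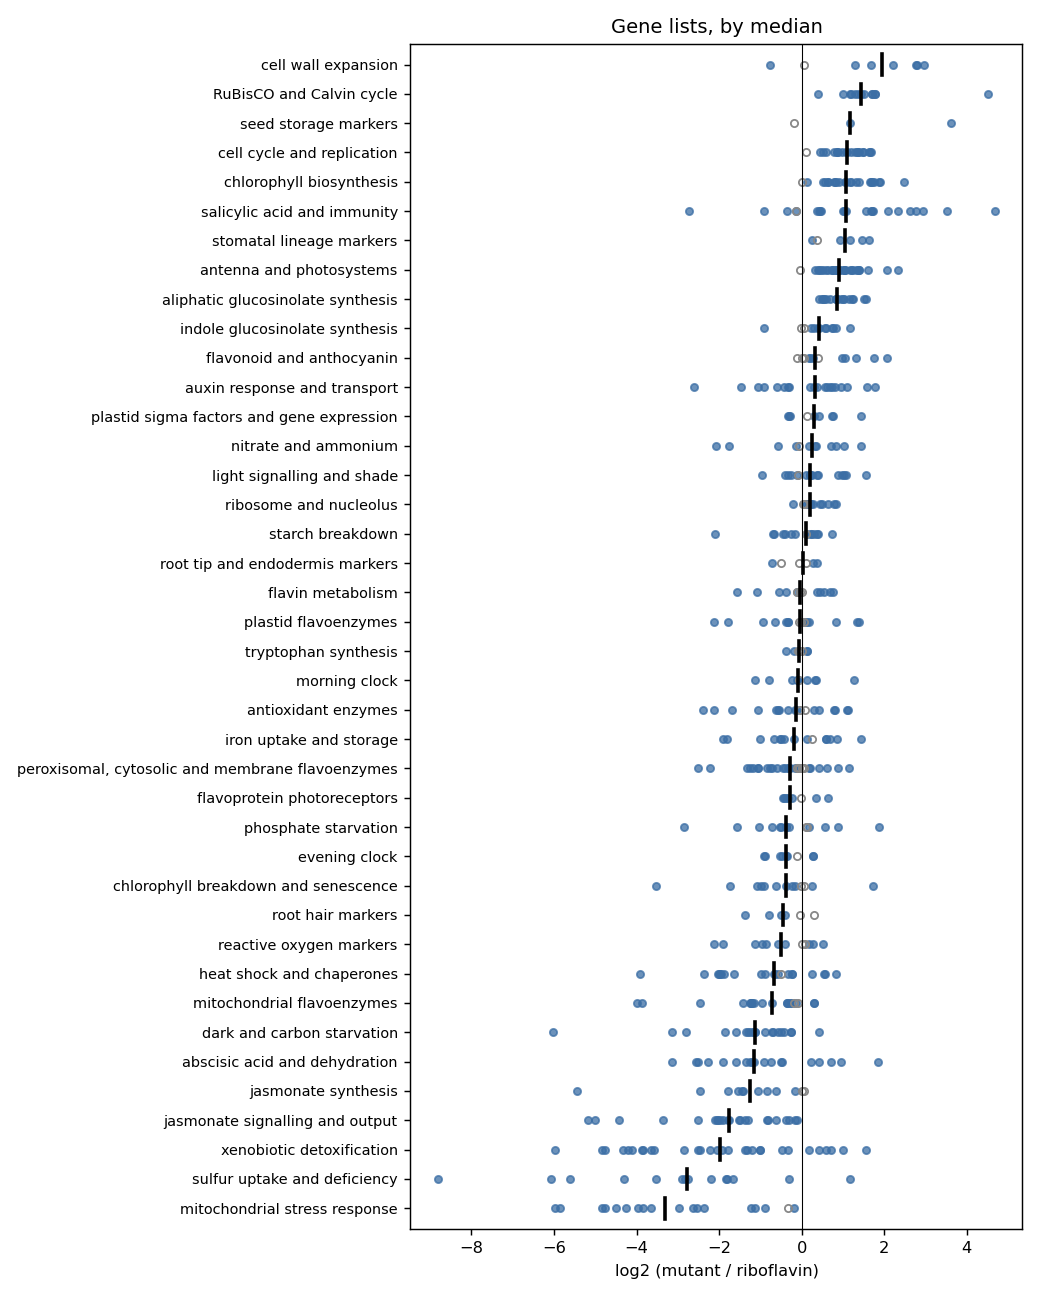
Log2 (mutant over riboflavin) of the tested members of 40 gene lists, ordered by their median (black bar), with filled points for called genes and open points for genes not called. The mitochondrial stress response lies lowest with a median of -3.31 and cell wall expansion highest with 1.95, while flavin metabolism lies near 0.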

How the data were processed

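The submitters' processing notes list Bowtie2, RSEM, DESeq2 and the TAIR10 genome, while the design text names SOAPnuke 1.5.2 and HISAT2 2.0.4, so the aligner behind the values is not settled. Per the file headers, the authors deposited expected counts of reads per gene and library, not normalized; rounding to whole numbers here touched 1.88% of the values. The 12 TPM columns of single libraries were not used, and levels per length within a gene family are CPM over the median spliced length of the gene's RefSeq transcripts. Joining the tables on the gene ID gave 24635 genes, 23856 in both, and a gene found in only 1 table was set to 0 in the other group. The 386 genes only in the mutant table had at most 34 counts and the 393 only in the riboflavin table at most 25. All identifiers matched the TAIR10.1 annotation, and genes of the organelle genomes were not examined on their own.

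The 6 libraries were fitted in edgeR 4.0.16 under R 4.3.3 with filterByExpr (minimum count 10, minimum total 15), TMM scaling and the quasi-likelihood F test without covariates, with Benjamini-Hochberg adjustment over 20344 tested genes. Fold changes used a prior count of 0.125, and levels are CPM scaled by TMM over all 9 libraries, so a ratio of levels can differ slightly from the fitted fold. The labels call the replicates biological. Genes named were the 10 highest and 10 lowest log2 differences with groups that do not overlap and at least 100 counts in the higher group, the 5 largest CPM differences each way, every flavin metabolism and photoreceptor gene, and the 3 highest and 3 lowest called members of each other list; further members were added as values. Genes such as AOX1A, CCA1, ICS1, EARLI1, BAP1, HSP17.6A and NIA2 were added in this way after their values were seen. The comparison and the 40 lists were chosen with earlier results of these data known, and 3 entries whose symbol and locus disagreed were dropped. No set was tested. Some genes stand in several lists, so the counts of different lists are not independent.

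In data simulated from these libraries (20344 genes, 50 changed at each fold), 76% of genes changed by 1.25-fold were called, 88% at 1.5-fold, 100% at 2-fold and 98% at 4-fold, with 7 unchanged genes called. No label ties the column letters A to C to replicate numbers, and same-letter libraries of the 2 groups shared no deviation (correlations across genes from 0.00222 to 0.0163). Alternatives were DESeq2 1.42.0, other scalings, other filters, all 9 libraries, the letters as a block, a minimum fold, and leaving out each library.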

Additional observations from a re-analysis of the deposited data

How the results depend on the processing

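The 15083 calls were 13652 with DESeq2, 15078 with its size factors in edgeR, 15006 with upper quartile scaling, 15459 with no filter on low counts and 15091 with all 9 libraries in 1 fit. No gene called both in the reported fit and under any of these had the opposite sign. Upper quartile scaling put the median log2 of all genes at 0.057, beside 0.002 in the reported fit, and gave 8240 calls higher and 6766 lower. Requiring a log2 difference of at least 1 left 3467 calls, 1955 higher and 1512 lower. This is a cut on the reported fit, so it repeats the 2-fold counts above and is no separate check. Leaving out each library in turn gave 14502 to 14677 calls, 7276 to 7396 of them higher and 7210 to 7294 lower, with 1968 to 2026 at least 2-fold higher and 1536 to 1586 at least 2-fold lower, and FMN/FHY from -1.59 to -1.55. With the column letters as a replicate block, a pairing the labels do not state, 15089 genes were called. Genes that were not called changed sign: AT5G08340 to 0.003 and ZTL to 0.039 with upper quartile scaling, and, over the fits that leave out 1 library, ZTL ranged from -0.031 to 0.007 and AT5G23330 from -0.024 to 0.078. The cause was not tested. With 3 libraries a group and genotype and treatment both changed, the p-values weigh a difference only against the spread of these libraries within their groups.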
